A study of Mus musculus with 9 samples.

Results

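The TNF and NF-κB response genes described here were 9 mouse genes, taken by name from the 27660 genes on the arrays: Tnf, Il1b, Traf1, Birc3, Nfkb2, Relb, Nfkbia, Tnfaip3 and Icam1. They were read by 11 of the 41174 gene probes, with 2 probes each for Birc3 and Icam1. RNA came from the livers of 3-month-old male C57BL/6 mice in 3 groups with 3 arrays each. AAV-hGRβ livers received an adeno-associated virus (AAV, a small virus used to carry genes into tissue) with hGRβ, the human glucocorticoid receptor in its β isoform, a splice form that differs from the hormone-binding α isoform at its carboxyl end. AAV-GFP livers received the virus with green fluorescent protein, the control for the vector, and untreated wild-type livers received no virus. The promoter of the vectors, their dose and the time after injection are not given in the sources used here, and the human transgene itself was not analysed. The study set out to characterise the function of this receptor isoform in mouse liver.

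TNF is an inflammatory cytokine made mainly by macrophages and other leukocytes, in the liver by Kupffer cells among others. Binding of TNF or interleukin-1 to their receptors assembles adaptor and ubiquitin ligase complexes that activate the IκB kinases. In the canonical branch, degradation of the inhibitor IκBα frees NF-κB dimers to enter the nucleus. The non-canonical branch turns on processing of the NF-κB2 precursor and acts through RelB. Many genes that NF-κB induces, Nfkbia, Tnfaip3, Birc3, Traf1, Nfkb2 and Relb among them, encode parts of the same pathway, and the ligand-bound glucocorticoid receptor is known to repress inflammatory NF-κB targets.

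Levels are log2 probe intensities minus the 75th percentile of their own array, which thus lies at 0. The share of gene spots well above background ran from 54.0% to 82.0% between arrays. Arrays were scanned on 2 days and lay on 5 slides. Scan day 2 held AAV-hGRβ replicate 1, AAV-GFP replicate 3 and untreated replicate 2, and day 1 held the other 6 arrays. Slides followed the groups: 1 slide held AAV-hGRβ replicate 1 and AAV-GFP replicate 3, and each of the other 4 held arrays of 1 group. With slide as a random block, 0 of the 9 genes passed in any comparison. Hepatocyte markers (albumin and 7 others) had a mean log2 level of 7.35 to 7.61 on AAV-hGRβ arrays, 7.64 to 7.82 on AAV-GFP arrays and 7.46 to 7.81 on untreated arrays.

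Against AAV-GFP, 2 of the 9 genes passed the test in AAV-hGRβ livers (adjusted p under 0.05), both upward: Tnf, the ligand, and Traf1, a signalling adaptor. Of all 16795 genes tested, 0.822% passed upward in this comparison. In a further pair, Relb and Icam1, every AAV-hGRβ array also lay above every AAV-GFP array, but their adjusted p was above the threshold. Such a gap between the groups was seen in 4 of the 9 genes and in 9.45% of all genes. The median log2 difference of the 9 genes was 0.64, beside 0.02 over all genes, and 7 of the 9 lay above 0, as did 52.7% of all genes. All 9 genes passed the filter on dim probes, but Tnf did so only through the AAV-hGRβ arrays, so it had to be brighter there than elsewhere.

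**Figure D1:**
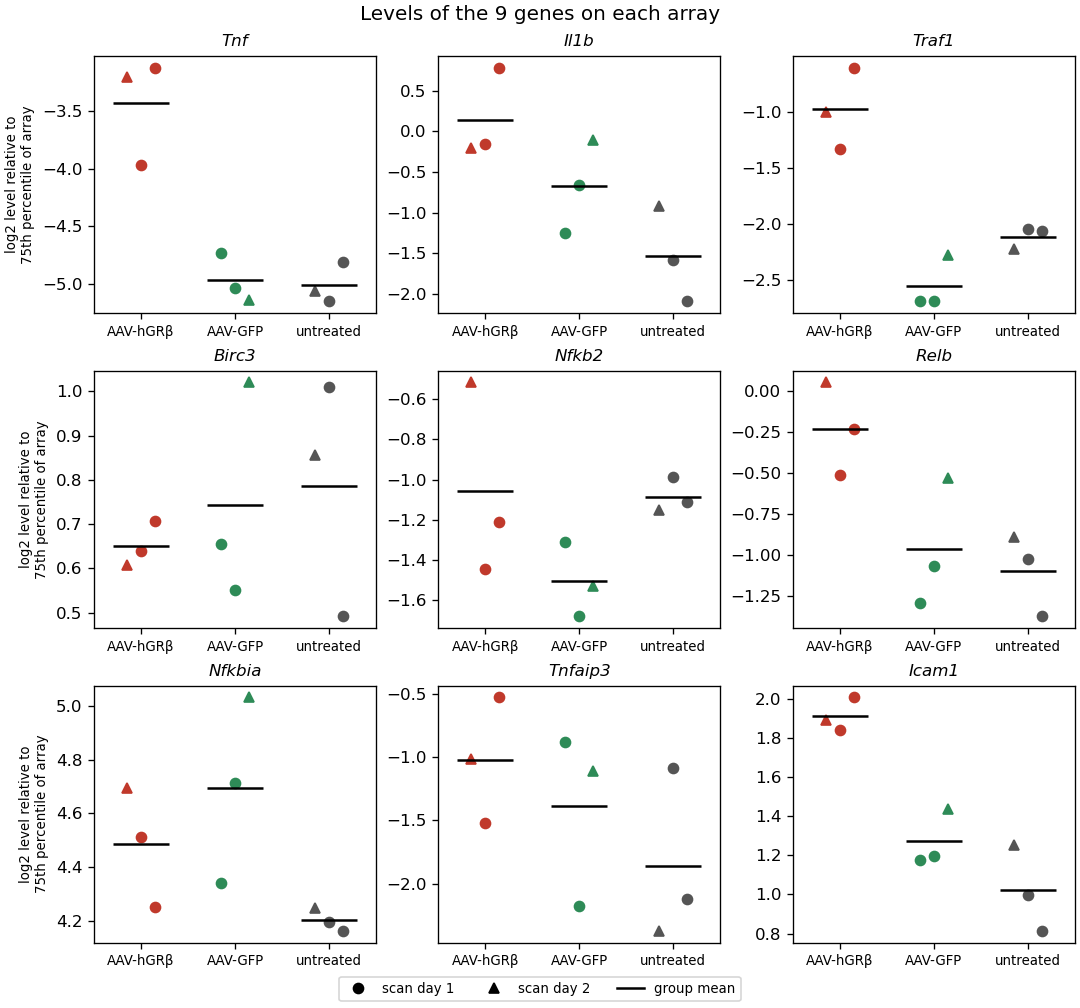
Levels of the 9 genes on each array, as log2 intensity relative to the 75th percentile of the array (vertical axis, a separate scale for each gene), with AAV-hGRβ left, AAV-GFP in the middle and untreated right. Points are arrays, circles scan day 1 and triangles scan day 2, and bars are group means. For Tnf, Traf1, Relb and Icam1 all 3 AAV-hGRβ arrays lie above all AAV-GFP arrays, while Birc3 and Nfkbia overlap.

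Tnf, the founding ligand of its family, had log2 levels of -3.21, -3.97 and -3.12 in AAV-hGRβ livers, against -4.73, -5.04 and -5.13 in AAV-GFP livers and -5.06, -5.15 and -4.81 in untreated livers. The 3 AAV-hGRβ arrays stood above all 6 others, and AAV-GFP and untreated arrays overlapped. The probe is at chr17:33296067-33296126 (mm7), and its first 30 bases are shown because 10 spots of it lie on each array.
Tnf probe, 5′ end: tgggctttccgaattcactggagcctcgaa
All 10 spots were well above background on each AAV-hGRβ array. On AAV-GFP arrays 2, 5 and 0 of 10 spots were, and on untreated arrays 1 of 10, 0 of 9 and 7 of 10. The linear intensity of the probe was 56.1, 25.7 and 67.1 in AAV-hGRβ livers, against 20.5, 15.1 and 10.2 in AAV-GFP livers and 13.1, 19.5 and 22.1 in untreated livers. Tnf was thus dim, and at least 50% of its spots were well above background on all 3 AAV-hGRβ arrays, 1 AAV-GFP array and 1 untreated array.

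**Figure D2:**
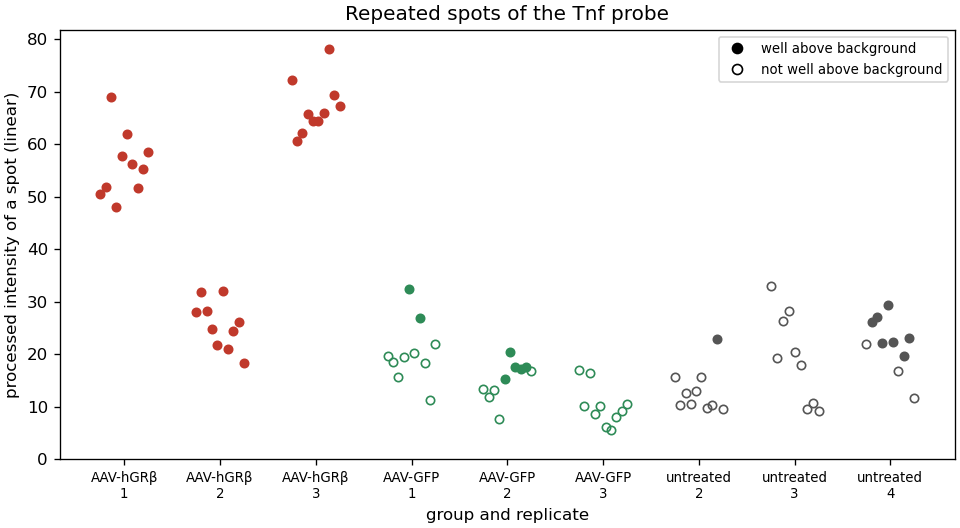
Processed intensity on a linear scale (vertical axis) of the repeated spots of the Tnf probe on each array, in the order AAV-hGRβ, AAV-GFP and untreated. Filled points are spots well above background and open points are not. All AAV-hGRβ spots are filled, and those of AAV-hGRβ replicate 2 overlap the brightest spots of the other groups.

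Each array of the dim group was also set to no less than its lowest signal well above background. Tnf was then 2.65-fold higher in AAV-hGRβ than in AAV-GFP livers and 2.32-fold higher than in untreated livers. These folds are not strict lower bounds, since that floor is taken over all probes of an array. On AAV-GFP replicate 3, Tnf spots at log2 levels of -4.31 and -4.36 were not well above background, though the floor was -4.75. The fit, which takes the dim signals as measured, gave 1.53 ± 0.25 (log2, SE) against AAV-GFP (adjusted p = 0.0299) and 1.57 ± 0.25 against untreated (adjusted p = 0.0169), whereas AAV-GFP and untreated livers differed by 0.04 ± 0.25 (adjusted p = 0.946). The AAV-hGRβ minus AAV-GFP difference was 1.34 within scan day 1 and 1.93 within scan day 2. Without AAV-hGRβ replicate 1 or 3, any 1 AAV-GFP replicate, or untreated replicate 3 or 4, its adjusted p was 0.0554 to 0.143 at differences of 1.38 to 1.65, and against untreated the call was lost without untreated replicate 3 or 4 or AAV-hGRβ replicate 3 (adjusted p = 0.0589 to 0.0874). With slide as a random block the adjusted p was 0.0680 against AAV-GFP and 0.118 against untreated. Normexp background correction, with an offset of 50 added to the corrected intensities, was also used in place of the scanner software's. The direction then turned in both comparisons, to -0.71 against AAV-GFP (adjusted p = 0.600) and -0.50 against untreated (adjusted p = 0.766). With bright local backgrounds replaced by the array's median before normexp, the direction turned in neither comparison.

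Il1b encodes interleukin-1β, a cytokine made as an inactive precursor by activated myeloid cells. Its log2 levels were -0.21, -0.15 and 0.79 in AAV-hGRβ livers, against -1.25, -0.66 and -0.10 in AAV-GFP livers and -0.91, -1.58 and -2.10 in untreated livers. AAV-hGRβ and AAV-GFP arrays overlapped, since AAV-GFP replicate 3 lay above AAV-hGRβ replicates 1 and 2, while all AAV-hGRβ arrays lay above all untreated ones. The difference was 0.82 ± 0.41 for AAV-hGRβ minus AAV-GFP (adjusted p = 0.497), 0.86 ± 0.41 for AAV-GFP minus untreated (adjusted p = 0.489) and 1.67 ± 0.41 for AAV-hGRβ minus untreated (adjusted p = 0.0615). Within scan day 1 AAV-hGRβ minus AAV-GFP was 1.28, and within day 2, with 1 array a group, it was -0.11. The difference from untreated passed with scan day as a block (adjusted p = 0.0406), within day 1 (0.0215) and in 3 other alternatives (0.0328 to 0.0430). Within day 1, 4773 of all 16795 genes passed in this comparison, against 551 in the main fit. The 10 spots of the Il1b probe on an array had an SD of at most 0.18 (log2), less than the spread between arrays of a group.

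Of 14 other TNF family ligands and receptors on a fixed list, 12 were tested. Tnfrsf10b, the mouse receptor for the death ligand TRAIL, passed the test in AAV-hGRβ livers against AAV-GFP livers, and the other 11 did not. Of all genes, 0.822% passed upward there. It had levels of -3.39, -3.63 and -3.30 in AAV-hGRβ livers, against -5.12, -4.40 and -5.62 in AAV-GFP livers and -4.68, -4.33 and -4.27 in untreated livers. Like Tnf, it passed the filter only through AAV-hGRβ arrays, being measured on 1 AAV-GFP and 2 untreated arrays. With AAV-GFP arrays set to no less than their lowest signal well above background, it was 2.30-fold higher in AAV-hGRβ livers, again not a strict lower bound. The fit gave a log2 difference of 1.61 ± 0.29 from AAV-GFP (adjusted p = 0.0474, and 0.0590 with slide as a random block). With normexp its difference was -0.68, but with bright local backgrounds replaced before normexp its direction did not turn. Tnfsf10, which encodes TRAIL itself, averaged -1.39 ± 0.36 in AAV-hGRβ livers, -2.48 ± 0.51 in AAV-GFP livers and -3.28 ± 0.78 in untreated livers (SD, n = 3 each). It rose against untreated by 1.88 (adjusted p = 0.0468). Cd40, a receptor of antigen-presenting cells that feeds the non-canonical branch, averaged -1.77 ± 0.45 in AAV-hGRβ livers, -3.09 ± 0.67 in AAV-GFP livers and -3.66 ± 0.63 in untreated livers and rose against untreated by 1.90 (adjusted p = 0.0483). Among those that passed in no comparison, the AAV-hGRβ minus AAV-GFP difference was 0.70 for Tnfsf14, a ligand of the lymphotoxin β receptor, and 1.06 for Ltb, which encodes lymphotoxin β (adjusted p = 0.125 and 0.163). All 12 differences lay above 0, as did 52.7% of all genes, and their median was 0.80, beside 0.02 over all genes. The 12 include Tnfrsf10b, for which the filter favoured AAV-hGRβ arrays. The call of Tnfrsf10b was lost without any 1 array other than AAV-GFP replicate 2 (adjusted p = 0.0599 to 0.223), and those of Tnfsf10 and Cd40 without any 1 array other than untreated replicate 2 and AAV-GFP replicate 3 (adjusted p = 0.0512 to 0.195).

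Traf1 is an adaptor that binds TRAF2 and the tails of several TNF receptors and is itself induced by NF-κB. Its log2 levels were -1.004, -1.33 and -0.61 in AAV-hGRβ livers, against -2.69, -2.69 and -2.28 in AAV-GFP livers and -2.23, -2.05 and -2.06 in untreated livers. The AAV-hGRβ arrays lay above all others by a wide gap, and every AAV-GFP array lay below every untreated one. The single Traf1 probe, at chr2:34950673-34950732 (mm7), was well above background on all 9 arrays, and its first 30 bases are shown as the other sequence behind a called gene.
Traf1 probe, 5′ end: ggtcagacattaatgtgaatttaacctgcc
Traf1 rose by 1.57 ± 0.22 in AAV-hGRβ livers relative to AAV-GFP livers, a fold of 2.97 (adjusted p = 0.0167), and by 1.13 ± 0.22 compared with untreated livers (adjusted p = 0.0357). AAV-GFP minus untreated was -0.44 ± 0.22 (adjusted p = 0.489). Within the scan days AAV-hGRβ minus AAV-GFP was 1.72 and 1.27. With slide as a random block the adjusted p was 0.0577 against AAV-GFP and 0.227 against untreated. The call against AAV-GFP was lost without AAV-hGRβ replicate 1 or 3 or AAV-GFP replicate 1 or 2 (adjusted p = 0.0617 to 0.0839), and that against untreated without AAV-hGRβ replicate 1 or 3, AAV-GFP replicate 2 or untreated replicate 3 or 4 (adjusted p = 0.0613 to 0.135). Normexp correction lowered the differences to 0.16 in both comparisons (adjusted p = 0.846 and 0.888). These were the lowest Traf1 differences among all alternatives.

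Birc3, an inhibitor of apoptosis protein and ubiquitin ligase of the TNF receptor complex, had levels of 0.61, 0.64 and 0.71 in AAV-hGRβ livers, against 0.66, 0.55 and 1.02 in AAV-GFP livers and 0.86, 1.01 and 0.49 in untreated livers. The groups overlapped in all 3 comparisons. AAV-hGRβ minus AAV-GFP was -0.09 ± 0.20 (adjusted p = 0.915) and AAV-hGRβ minus untreated -0.14 ± 0.20 (adjusted p = 0.669). The dimmer Birc3 probe gave 0.72 ± 0.61 and 1.07 ± 0.61 in the same comparisons, and its arrays spread from -4.12 to -1.76, so the probes differ in sign. RefSeq lists Birc2 as an older name of Birc3, but the probe labelled Birc2 carries the transcript of the separate gene Birc2 and was not counted here.

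None of 23 other adaptors and kinases of the pathway passed in the limma test of AAV-hGRβ against AAV-GFP, and 3 had an unadjusted p under 0.05, as did 11.7% of all genes, the share for each such count in this comparison. Their median difference was 0.03. The smallest p values belonged to Rnf31, the catalytic subunit of the linear ubiquitin ligase complex, with 0.70 ± 0.16 (adjusted p = 0.0935), and Map3k14, the kinase NIK of the non-canonical branch, with 0.59 ± 0.19 (adjusted p = 0.256). Rnf31 averaged 2.03 ± 0.17 in AAV-hGRβ livers, 1.33 ± 0.05 in AAV-GFP livers and 1.55 ± 0.10 in untreated livers, with no overlap between AAV-hGRβ and the other groups.

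Among the NF-κB subunits, Relb and Nfkb2 form the dimer of the non-canonical branch. Relb had log2 levels of 0.06, -0.51 and -0.23 in AAV-hGRβ livers, against -1.29, -1.07 and -0.53 in AAV-GFP livers and -0.89, -1.03 and -1.37 in untreated livers. All AAV-hGRβ arrays were above all others, though only narrowly above AAV-GFP replicate 3. The difference was 0.73 ± 0.25 from AAV-GFP (adjusted p = 0.282) and 0.87 ± 0.25 from untreated (adjusted p = 0.0896). It was 0.81 within day 1 and 0.59 within day 2 for AAV-hGRβ minus AAV-GFP. With scan day as a block its difference from untreated passed (adjusted p = 0.0326), as it did within day 1 (adjusted p = 0.0377). More of all genes passed there too, 4773 of 16795 within day 1, against 551 in the main fit.

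Nfkb2 encodes the precursor that the non-canonical branch processes, which keeps RelB in the cytoplasm until it is cut. It had levels of -0.52, -1.45 and -1.21 in AAV-hGRβ livers, against -1.31, -1.68 and -1.53 in AAV-GFP livers and -1.15, -0.99 and -1.11 in untreated livers. AAV-hGRβ replicate 1 stood above the other arrays, and every AAV-GFP array lay below every untreated one. The differences were 0.45 ± 0.24 for AAV-hGRβ minus AAV-GFP (adjusted p = 0.546), -0.42 ± 0.24 for AAV-GFP minus untreated (adjusted p = 0.493) and 0.03 ± 0.24 for AAV-hGRβ minus untreated (adjusted p = 0.951). For AAV-hGRβ minus AAV-GFP, day 1 gave 0.17 and day 2 gave 1.01. Its probe covers chr19:46208290-46208429 (mm7), more than its 60 bases, so it does not lie in a single genomic block, and it is shown whole.
Nfkb2 probe: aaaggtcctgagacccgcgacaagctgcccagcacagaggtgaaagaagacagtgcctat

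Of the other subunits, Rela and Nfkb1, the partners of the canonical dimer, were tested and neither passed in AAV-hGRβ against AAV-GFP (unadjusted p under 0.05 in 0 of 2). Rela averaged 1.66 ± 0.36 in AAV-hGRβ livers, 1.77 ± 0.42 in AAV-GFP livers and 2.23 ± 0.37 in untreated livers. Nfkb1 averaged -0.72 ± 0.07 in AAV-hGRβ livers, -0.68 ± 0.17 in AAV-GFP livers and -0.38 ± 0.33 in untreated livers. Rel was removed by the filter on dim probes.

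Neither inhibitor among the 9 genes passed in any comparison. Nfkbia encodes IκBα, the inhibitor whose resynthesis ends a canonical response. Its levels were 4.69, 4.51 and 4.25 in AAV-hGRβ livers, against 4.34, 4.71 and 5.03 in AAV-GFP livers and 4.25, 4.20 and 4.16 in untreated livers. AAV-hGRβ and AAV-GFP arrays overlapped, and both groups lay above all untreated arrays, AAV-hGRβ replicate 3 by the narrowest margin. The difference was -0.21 ± 0.21 for AAV-hGRβ minus AAV-GFP (adjusted p = 0.793), 0.49 ± 0.21 for AAV-GFP minus untreated (adjusted p = 0.489) and 0.28 ± 0.21 for AAV-hGRβ minus untreated (adjusted p = 0.396). The probe covers chr12:53415998-53416493 (mm7), again more than its 60 bases.
Nfkbia probe: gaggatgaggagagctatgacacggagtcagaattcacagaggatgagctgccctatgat

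Tnfaip3 encodes a ubiquitin-editing enzyme that shuts down signalling from the TNF receptor. Its levels were -1.01, -1.52 and -0.53 in AAV-hGRβ livers, against -0.88, -2.17 and -1.11 in AAV-GFP livers and -2.37, -1.09 and -2.12 in untreated livers. The groups overlapped in each comparison, and the SD within a group was 0.50 for AAV-hGRβ, 0.69 for AAV-GFP and 0.68 for untreated livers. AAV-hGRβ minus AAV-GFP was 0.37 ± 0.44 (adjusted p = 0.838) and AAV-hGRβ minus untreated 0.84 ± 0.44 (adjusted p = 0.256).

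Of 12 other inhibitors tested, 0 passed in limma against AAV-GFP, and 1 had an unadjusted p under 0.05. This was Nfkbid, a nuclear IκB protein, with 1.12 ± 0.36 (adjusted p = 0.252) and a dim signal, measured on 2 of 3 AAV-GFP and 2 of 3 untreated arrays. It passed the filter on dim probes only through AAV-hGRβ arrays, so the filter favoured a higher signal there. Zc3h12a, a ribonuclease that degrades inflammatory messages, gave 0.77 ± 0.35 (adjusted p = 0.451), and the median of the 12 was 0.16.

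Icam1, an adhesion molecule by which endothelium and other cells bind leukocytes, is a classic NF-κB target. Its levels were 1.89, 1.84 and 2.01 in AAV-hGRβ livers, against 1.18, 1.20 and 1.44 in AAV-GFP livers and 1.25, 1.00 and 0.81 in untreated livers. The AAV-hGRβ arrays lay close together above all others, and AAV-GFP and untreated arrays overlapped. Icam1 rose by 0.89 ± 0.17 compared with untreated livers (adjusted p = 0.0357), and it differed from AAV-GFP by 0.64 ± 0.17 (adjusted p = 0.170), with 0.74 within day 1 and 0.46 within day 2. The call against untreated was lost without any 1 AAV-hGRβ replicate, AAV-GFP replicate 2 or untreated replicate 3 or 4 (adjusted p = 0.0608 to 0.157), and with slide as a random block its adjusted p was 0.208. The dimmer Icam1 probe ran the same way, with 0.59 ± 0.30 from AAV-GFP and 0.73 ± 0.30 from untreated. The bright probe (chr9:20905300-20905359, mm7) has a polyadenylation signal near its 3′ end, shown in capitals, while the dim one (chr9:20904404-20904463, mm7) lies upstream of it on the plus strand of the chromosome, which places them in different parts of the transcript.
Icam1 bright probe, 3′ end: agaaacctttcctttgaatcAATAAAgttt
Icam1 dim probe: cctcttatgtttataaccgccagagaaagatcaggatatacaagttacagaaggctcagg

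Of 31 other NF-κB targets on a fixed list, 29 were on the arrays and 22 were tested. Sele, Cxcl2, Ccl20, Ptgs2, Nos2, Csf2 and Plau were removed by the filter on dim probes. Among the 22, 3 rose in AAV-hGRβ livers relative to AAV-GFP livers and 0 fell. Of all genes, 0.822% rose and 0.0774% fell. Ccl5, a chemokine that attracts T cells, rose by 2.96 ± 0.48 (adjusted p = 0.0299), with levels of 3.91, 2.30 and 4.29 in AAV-hGRβ livers, against 0.11, 0.77 and 0.74 in AAV-GFP livers and 1.01, 0.28 and 0.42 in untreated livers. Cxcl10, an interferon-induced chemokine for T cells, rose by 1.88 ± 0.30 (adjusted p = 0.0299) and averaged 2.27 ± 0.37 in AAV-hGRβ livers, 0.39 ± 0.34 in AAV-GFP livers and 0.20 ± 0.48 in untreated livers. Tlr2, a receptor for bacterial lipoproteins, rose by 1.44 ± 0.23 (adjusted p = 0.0299) and averaged 1.29 ± 0.29 in AAV-hGRβ livers, -0.15 ± 0.29 in AAV-GFP livers and -0.76 ± 0.28 in untreated livers. Ccl5 and Cxcl10 are also known as interferon-induced genes. The list's median was 0.82. Left out singly, arrays other than untreated replicate 2 and AAV-hGRβ replicate 2 ended the call of Ccl5, arrays other than untreated replicates 2 and 3, AAV-GFP replicate 2 and AAV-hGRβ replicate 2 that of Cxcl10, and arrays other than untreated replicates 2 and 4 and AAV-GFP replicate 3 that of Tlr2 (adjusted p = 0.0512 to 0.145). With slide as a random block Ccl5 and Tlr2 lost the call (adjusted p = 0.0896 and 0.1004) and Cxcl10 kept it. Gadd45b, an NF-κB target that limits cell death, and Ccl2, a monocyte chemokine, had 1.29 ± 0.31 and 1.49 ± 0.44 without passing (adjusted p = 0.123 and 0.215).

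**Figure D3:**
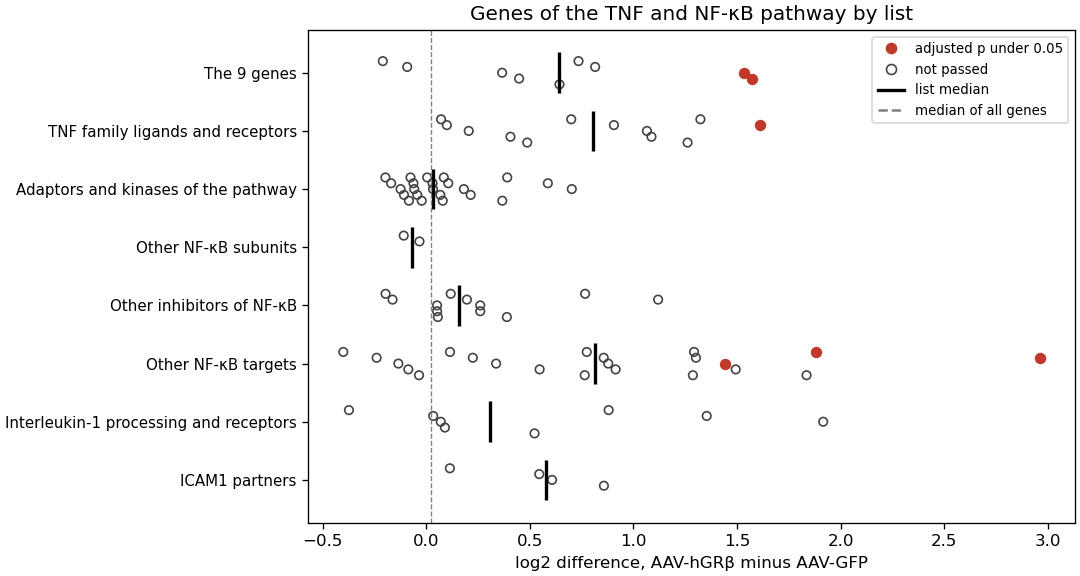
Log2 differences AAV-hGRβ minus AAV-GFP (horizontal axis) of the tested genes of the 9 genes and the 7 other lists of the pathway (rows). Filled points passed at an adjusted p under 0.05, black bars are list medians and the dashed line is the median of all genes. Filled points lie in the top row (Tnf and Traf1), among TNF family ligands and receptors (Tnfrsf10b) and among other targets (Cxcl10, Ccl5 and Tlr2).

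The same comparison was made for the partners of Il1b and Icam1. None of 8 genes for interleukin-1 processing and receptors passed in limma. At an unadjusted p under 0.05 there were 4, against 11.7% of all genes. Pycard, Il1r2 and Casp1, the protease that cuts the Il1b precursor, lay above AAV-GFP. In Il1rap, the accessory chain of the interleukin-1 receptor, every AAV-hGRβ array lay below every AAV-GFP array. Pycard, the inflammasome adaptor, gave 1.35 ± 0.46 (adjusted p = 0.284), and Il1r2, a decoy receptor for interleukin-1, gave 1.92 ± 0.70 (adjusted p = 0.326). Il1r2 was measured on 1 of 3 AAV-GFP arrays and on no untreated array. It passed the filter on dim probes only through AAV-hGRβ arrays, so it had to be brighter there than elsewhere. With AAV-GFP arrays set to no less than their lowest signal well above background, it was 2.60-fold higher in AAV-hGRβ livers. That fold is not a strict lower bound. None of the 4 ICAM1 partners passed (1 at an unadjusted p under 0.05), with 0.61 ± 0.27 for Itgal and 0.55 ± 0.26 for Itgb2, the chains of the leukocyte integrin that binds ICAM1 (adjusted p = 0.427 and 0.480).

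Against untreated livers, 3 of the 9 genes rose in AAV-hGRβ livers, Tnf, Traf1 and Icam1, as did 2.5% of all genes. All AAV-hGRβ arrays lay above all untreated ones for 6 of the 9, against 14.7% of all genes, and the added genes were Il1b, Relb and Nfkbia. The median difference of the 9 was 0.87, beside 0.09 over all genes. Both counts and the median include Tnf, which passed the filter on dim probes only through AAV-hGRβ arrays. This comparison shares its AAV-hGRβ arrays with the one against AAV-GFP. Among the other targets, Tlr2 (2.05), Cxcl10 (2.07) and Ccl5 (2.93) passed again, with Vcam1 (1.67), an adhesion molecule, Cd83 (2.21), a marker of activated antigen-presenting cells, and Bcl2a1b (3.01), a survival gene with near-identical copies that its probe may also read. Their adjusted p ran up to 0.0447. All but Tlr2 lost the call without untreated replicate 3 or 4 or AAV-hGRβ replicate 3 (adjusted p = 0.0528 to 0.183 over all arrays named here). With slide as a random block all but Tlr2 lost it too, as did Tnfsf10 and Cd40 (adjusted p = 0.0792 to 0.295). Ccl5, Cd83, Vcam1 and Bcl2a1b also lost it without AAV-hGRβ replicate 1, Vcam1 and Bcl2a1b without AAV-hGRβ replicate 2, Cd83 and Bcl2a1b without AAV-GFP replicate 2, and Vcam1 without AAV-GFP replicate 3.

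Between AAV-GFP and untreated livers, limma called 0 of the 9 genes, and 0% of all genes. At an unadjusted p under 0.05 it called Nfkbia of the 9, and 9.82% of all genes. Every AAV-GFP array lay above every untreated array for 1 gene of the 9, Nfkbia, as for 5.68% of all genes, and below for Traf1 and Nfkb2, as for 9.21% of all genes.

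**Figure D4:**
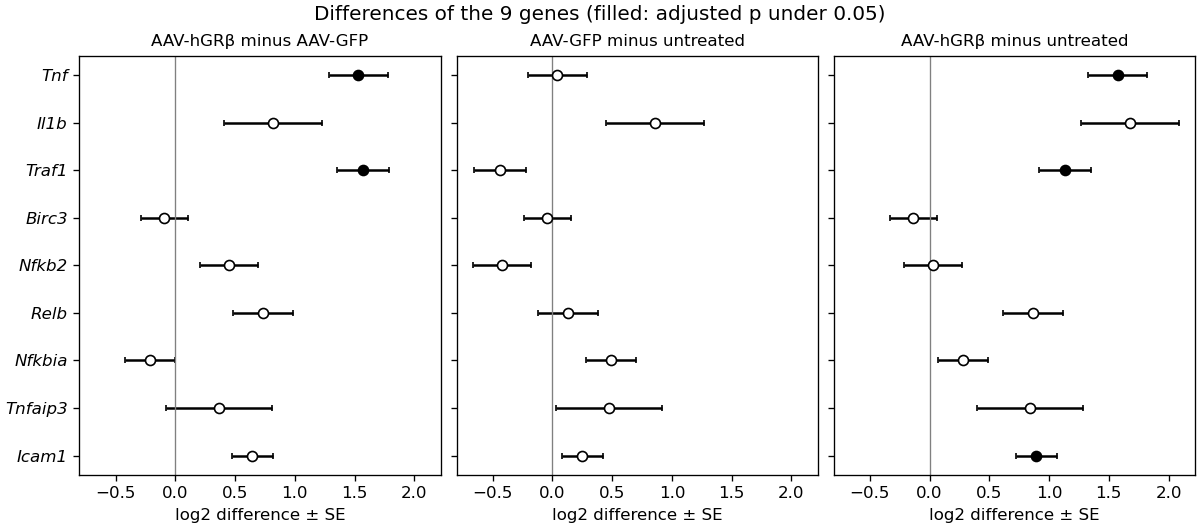
Log2 differences of the 9 genes (rows, by role) with their SE (bars) in the 3 comparisons, each with 3 arrays a group; filled points have an adjusted p under 0.05. Tnf and Traf1 are filled against both AAV-GFP (1.53 and 1.57) and untreated livers (1.57 and 1.13), Icam1 is filled against untreated livers (0.89), and no point is filled between AAV-GFP and untreated livers.

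Across scan days, 7 of the 9 genes kept the sign of AAV-hGRβ minus AAV-GFP, Birc3 and Il1b being the exceptions. In limma, the term for a different effect on each day was past the threshold for 0 of the 9 and for 0 of 16755 genes, with 2924 genes at an unadjusted p under 0.05 and 3 residual degrees of freedom. With arrays scaled to their medians in place of the 75th percentile, every AAV-hGRβ minus AAV-GFP difference moved by -0.34 and every AAV-hGRβ minus untreated difference by -0.33. On that scale Tnf and Traf1 stood at 1.19 and 1.23 against AAV-GFP with adjusted p of 0.142 and 0.103.

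Levels of leukocyte markers were also compared between the groups. The summed level of 9 neutrophil and monocyte markers, in multiples of the array's 75th percentile, was 56.9 to 94.2 on AAV-hGRβ arrays, against 14.4 to 20.5 on AAV-GFP arrays and 10.02 to 17.8 on untreated arrays. Ly6c1, which endothelial cells also express, carried most of that sum on the AAV-hGRβ arrays, with 40.5 to 70.0 there, against 6.99 to 9.88 on AAV-GFP arrays and 4.16 to 8.01 on untreated arrays. Without Ly6c1 the sums of the other 8 were 12.8 to 24.1 on AAV-hGRβ arrays, 5.58 to 13.0 on AAV-GFP arrays and 4.60 to 9.78 on untreated arrays, so AAV-hGRβ and AAV-GFP overlapped. Csf3r, the receptor for the neutrophil growth factor G-CSF, differed by -0.47 from AAV-GFP (adjusted p = 0.755). The summed level of 15 T and NK cell markers was 5.72 to 12.6 on AAV-hGRβ arrays, against 2.87 to 3.06 on AAV-GFP arrays and 2.63 to 3.05 on untreated arrays. No AAV-GFP or untreated array measured Cd8a well above background, and no AAV-GFP array measured Klrk1 so. Cd8a thus passed the filter on dim probes only through AAV-hGRβ arrays and had to be brighter there. Both genes enter the sum, count and median of this list. For 13 Kupffer cell and macrophage markers the sums were 260 to 364 on AAV-hGRβ arrays, 109 to 192 on AAV-GFP arrays and 107 to 136 on untreated arrays, with no value for Marco on AAV-GFP replicate 3. Against AAV-GFP, 1 of 9 (Ly6c1), 4 of 15 and 1 of 13 genes of these lists rose, beside 0.822% of all genes. Their median differences were 1.36, 1.39 and 0.54. The 6 B cell and 7 dendritic cell markers had medians of 0.60 and 0.89, and 0 passed in either list (1 and 2 at an unadjusted p under 0.05, beside the 11.7% of all genes). Siglech of the dendritic cell list also passed the filter only through AAV-hGRβ arrays. The 10 markers of endothelial cells, which carry ICAM1 in inflamed vessels, had a median of -0.24, the 8 hepatocyte markers -0.23 and the 9 stellate cell markers -0.04, with 0 genes passed (2, 1 and 2 at an unadjusted p under 0.05). The part of these cells in the results on Tnf, Traf1 and Icam1 was not tested. In bulk liver RNA, more cells of a type and more RNA per cell cannot be told apart.

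**Figure D5:**
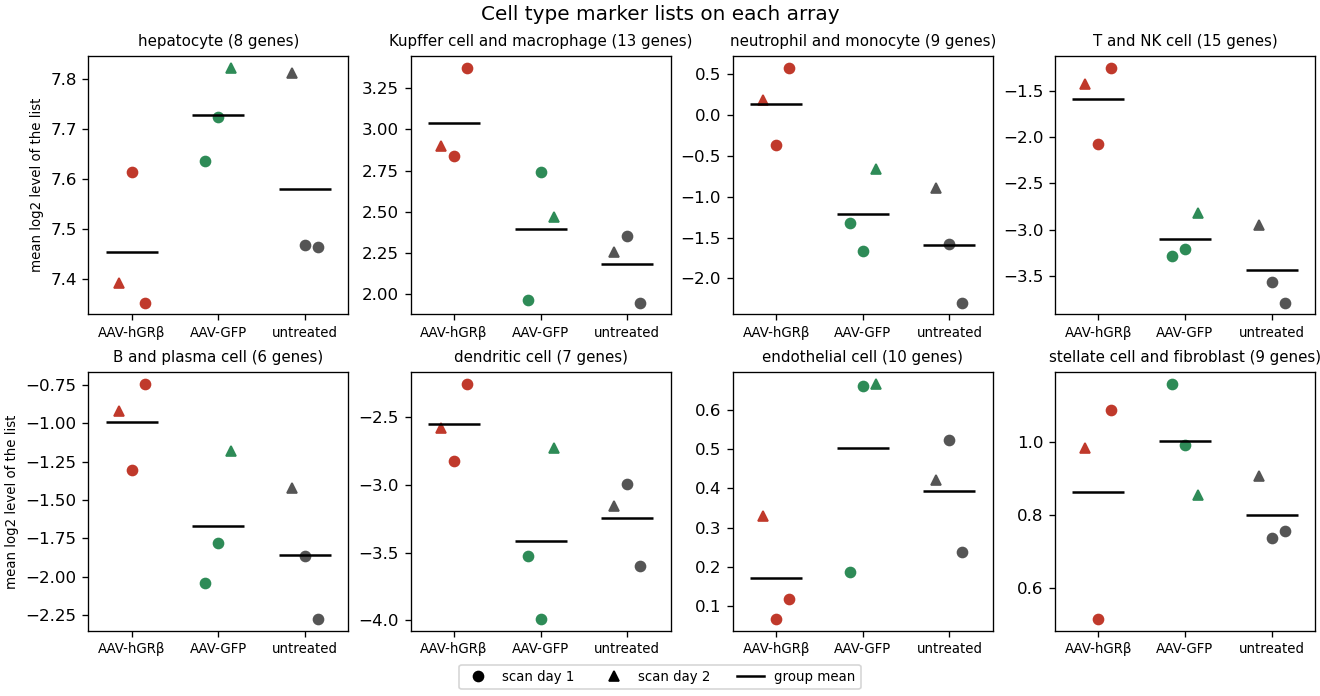
Mean log2 level of the tested genes of 8 cell type marker lists (panels) on each array, with AAV-hGRβ left, AAV-GFP in the middle and untreated right; circles are scan day 1, triangles scan day 2 and bars group means. In the panels of macrophage, neutrophil and monocyte, and T and NK cell markers all 3 AAV-hGRβ arrays lie above the arrays of the other groups.

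The members' mean standardised level, an average over the 9 genes of their distance from their mean in SDs, was 0.99, 0.27 and 0.91 in AAV-hGRβ livers, against -0.43, -0.60 and 0.32 in AAV-GFP livers and -0.37, -0.20 and -0.88 in untreated livers. AAV-GFP replicate 3 stood just above AAV-hGRβ replicate 2, so the groups overlapped on this average. Over the 9 arrays, tested genes with a pattern most like it included Slfn9 (Pearson r = 0.967), Kif23 (0.966), Sash3 (0.962), Arhgap9 (0.960) and Cd40 (0.956). Those most like Tnf were Gbp7 (0.986), Egr2 (0.980) and Oasl2 (0.978). Slfn9 had levels of -6.20 to -5.28 on the untreated arrays and AAV-GFP replicates 1 and 2. Each was below that array's lowest signal well above background. Likeness to Tnf also rests on arrays where most Tnf spots were not well above background. The correlations are descriptions, since the arrays share 3 group means and the highest of many genes were taken.

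Promoter windows of 300 bases around the transcription start were in the RefSeq table (GRCm38.p6) for 8 of the 9 genes, Relb being absent, with 11 windows in all. The κB consensus, searched on both strands, was found in windows of 3 of the 8 genes, Nfkb2, Nfkbia and Tnfaip3, against 5.14% of all 27025 genes. By window, it was in 5 of the 11, against 4.51% of all 32851 windows. Counts by window repeat genes, since Nfkb2 has several windows, of which overlapping ones share a match. A looser motif, GGG and TTCC around 3 free letters, which overlaps the consensus at several places, was found for the same 3 genes, against 6.31% of all genes, and in 6 of the 11 windows, against 5.56% of all windows. Neither motif is in the windows of Tnf, Traf1, Icam1, Il1b and Birc3. Both motifs require GGG, and κB-like letters without it or outside the 300 bases were not searched, so these genes may still have κB sites. The 3 windows below, with matches in capitals, set Nfkbia and Nfkb2, whose levels overlapped between AAV-hGRβ and AAV-GFP livers, beside Tnf, which passed the test.
Nfkbia, chr12:55492598-55492897, minus strand: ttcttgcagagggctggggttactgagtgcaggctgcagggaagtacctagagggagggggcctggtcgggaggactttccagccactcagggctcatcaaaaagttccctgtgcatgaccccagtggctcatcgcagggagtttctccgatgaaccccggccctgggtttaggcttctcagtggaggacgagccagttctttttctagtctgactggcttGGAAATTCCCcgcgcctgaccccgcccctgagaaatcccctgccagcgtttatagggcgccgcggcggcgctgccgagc
Nfkb2, chr19:46304487-46304786, plus strand: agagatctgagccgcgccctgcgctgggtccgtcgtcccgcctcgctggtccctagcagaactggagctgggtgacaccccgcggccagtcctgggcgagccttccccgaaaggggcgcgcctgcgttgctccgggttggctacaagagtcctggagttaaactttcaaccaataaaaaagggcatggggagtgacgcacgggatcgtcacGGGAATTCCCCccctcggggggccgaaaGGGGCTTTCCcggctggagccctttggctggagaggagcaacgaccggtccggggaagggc
Tnf, chr17:35201958-35202257, minus strand: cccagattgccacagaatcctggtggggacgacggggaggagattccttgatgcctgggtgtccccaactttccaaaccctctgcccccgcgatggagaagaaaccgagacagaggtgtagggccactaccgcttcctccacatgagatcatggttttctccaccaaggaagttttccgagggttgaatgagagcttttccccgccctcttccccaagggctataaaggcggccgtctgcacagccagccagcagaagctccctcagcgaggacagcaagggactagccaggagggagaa
In the Nfkbia window the match starts 29 bases before the transcription start, and in the Nfkb2 window the matches start 39 and 11 bases before it. A match is a stretch of letters and was not tested as a binding site.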

How the data were processed

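Total RNA of 9 livers was labelled with Cy3 and hybridised to 1-colour Agilent mouse arrays. Per the file headers, the deposited spot values are processed intensity on a linear scale, with background and spatial trend removed within each array by Agilent Feature Extraction, version 9.5 per the submitters' processing notes, and with no scaling between arrays. The deposited series table holds the same intensity values (largest difference 0). Probe positions are those of the files, on mm7; no annotation of that build was used.

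Control spots and outlier spots were left out, repeated spots of a probe were averaged as log2, and each array's 75th percentile was subtracted. A probe counted as measured on an array when at least 50% of its spots were well above background, and was kept when this held on all arrays of at least 1 group (24273 probes). Each of the 16795 genes tested was represented by its brightest kept probe on average. Names came from a RefSeq table (GRCm38.p6): an accession named 22951 probes, a current symbol 6661, an older symbol 3097 and a gene identifier 294, and the other 8171 were left with their array names.

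The test was limma (version 3.58.1, R 4.3.3), two-sided, with lmFit and eBayes on all 9 arrays and 6 residual degrees of freedom, with Benjamini-Hochberg adjustment over all genes within a comparison at 0.05, tested on simulated data. Every adjusted p in the text comes from limma. Named beside the members are the pathway genes that passed in any comparison, and for each list the 2 with the smallest p that did not. Of the genes most like the members over the arrays, 1 is not reported here. The members and lists were chosen with earlier results of these data known. The labels do not say that replicates are separate animals, so p-values measure the spread between these samples, which may be technical, and the number of arrays limits the precision.

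Deviations of same-numbered AAV-hGRβ and AAV-GFP arrays from their group means had r of 0.012, 0.242 and 0.0065 for replicates 1, 2 and 3. Differently numbered arrays had r of -0.27 to 0.21. Only replicate 2 lay above that range, so replicate numbers were not used as pairs. Alternatives covered scan day, slide, replicate number, scaling, background correction, filters, probe choice and each array left out.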

Additional observations from a re-analysis of the deposited data

How the results depend on the processing

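The count of the 9 genes past the threshold depended on most settings, while AAV-GFP against untreated stayed at 0 of 9 throughout. For AAV-hGRβ against AAV-GFP, 2 of 9 became 0 with slide as a random block, only both groups' arrays, scaling to medians, normexp, no filter or scan day 1 alone, became 1 with quantile normalization, with normexp and bright local backgrounds replaced, and with probes measured on all 9 arrays (where Tnf was not tested), and ran from 0 to 2 with arrays left out. For AAV-hGRβ against untreated, 3 of 9 became 5 with scan day as a block or within day 1 (Il1b and Relb added), 1 with only both groups' arrays or scaling to medians, 0 with slide, normexp or no filter, and 0 to 4 with arrays left out. Over all genes, 151 for AAV-hGRβ against AAV-GFP became 258 (scan day), 76 (slide), 75 (only both groups' arrays), 95 (medians), 18 (normexp), 30 (no filter), 3 (day 1) and 40 to 165 (arrays left out). The 551 for AAV-hGRβ against untreated became 1264 (scan day), 59 (slide), 307 (only both groups' arrays), 49 (normexp), 884 (normexp, bright backgrounds replaced), 84 (no filter), 4773 (day 1) and 94 to 2039 (arrays left out). The 0 for AAV-GFP against untreated became 1 (scan day, quantile or day 1), 4 (medians) and 0 to 1 (arrays left out). The replicate block, on numbers not used as pairs in the main fit, left 2 genes and 0 of 9 members against AAV-GFP. Against untreated it left 1 gene and 0 of 9 members, with Nfkb2 at -0.17. The cause was not tested for any of these.

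Directions turned as follows. For AAV-hGRβ minus AAV-GFP, normexp gave -0.71 for Tnf, 0.20 for Birc3, -0.31 for Nfkb2, 0.52 for Nfkbia, -0.27 for Tnfaip3 and -0.68 for Tnfrsf10b. Birc3 was 0.31 as the mean of its probes, 0.069 within day 1 and -0.19 to 0.047 with arrays left out, and Tnfaip3 was -0.026 to 0.62 with arrays left out. For AAV-GFP minus untreated, Tnf was -0.024 with slide, -0.12 with quantile normalization and -0.078 to 0.14 with arrays left out, Birc3 was 0.0055 with slide, 0.0015 with normexp and bright backgrounds replaced, 0.15 as the mean of its probes and -0.19 to 0.068 with arrays left out, and Relb was -0.084 to 0.30 with arrays left out. For AAV-hGRβ minus untreated, normexp gave -0.50 for Tnf, 0.14 for Birc3 and -0.38 for Nfkb2, Birc3 was 0.47 as the mean of its probes, Nfkb2 was -0.31 with medians, -0.0069 with quantile normalization, -0.026 with normexp and bright backgrounds replaced, -0.28 within day 1 and -0.24 to 0.22 with arrays left out, and Nfkbia was -0.051 with medians. Traf1 kept its direction in all 23 alternatives of both AAV-hGRβ comparisons. Its result counted as unchanged in 12 of 23 for each. That count includes day 2, which had no test and was judged by the size of the difference alone. It also includes the deposited series table, which holds the same values and could not differ. Tnf kept its call in 5 of 22 alternatives against AAV-GFP, with the deposited series table among the 5 and the untested day 2 among the 22. Signal over background limits Tnf, whose spots outside AAV-hGRβ livers were mostly not well above background.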
